A study of Mus musculus with 28 samples.

Results

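The 45 protein-coding genes whose level fell from E13 to E14 and again from E14 to E16 in the developing mouse molar are described here. They were chosen on the measured values. For each gene the level in CPM (the reads of a gene scaled to 1e+06 reads counted in that tooth) was taken in 7 teeth of each stage. A gene was kept when its E13 median was at least 2 CPM, its E14 median was at most 0.8 times the E13 median, and its E16 median was at most 0.8 times the E14 median. In addition, every E14 tooth had to be below every E13 tooth, and every E16 tooth but one below every E14 tooth. Of the 52636 genes counted, 21896 are protein coding, 12370 of these reached the E13 minimum, and 45 met all the conditions. The falls between E13, E14, and E16 are therefore a property of the choice, and they are given as a description without a test.

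The study sequenced RNA of tooth germs of C57BL/6JOlaHsd mice, each library being 1 molar tooth germ with a minimum of surrounding tissue and no pooling. All the mice were wild type. The teeth labeled E13.5 are at the bud stage and are called E13 as in the paper, those labeled E14.5 are at the cap stage and are called E14, and those labeled E16.5 are at the bell stage and are called E16. A further set of teeth is labeled E15. The paper does not describe these teeth, so its account of strain and dissection is of the other stages. There are 7 teeth of 7 embryos at E13, 7 teeth of 6 embryos at E14, and 7 teeth of 5 embryos at E16, so that some E14 and E16 teeth are the left and right tooth of a shared embryo. Of E15, 6 teeth of 6 embryos were counted, and only in a second table, made with salmon, that also holds the E13 and E16 teeth. Another tooth labeled E15 has no counts.

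The E13, E14, and E16 libraries had between 17814073 and 27115729 counted reads, and the salmon counts of the E15 teeth were between 17572427 and 22792374. The E16 tooth that the choice of genes left out, the left tooth of embryo 3, had the lowest total. Its summed level of 11 osteoblast markers was 1913 CPM, and that of the other 6 E16 teeth was between 5471 and 7238 CPM. It was also the lowest E16 tooth in the sums of the tooth epithelium markers (2382 CPM, others 3231 to 3974) and endothelium markers (290 CPM, others 468 to 630). Its sums of skeletal muscle, cartilage, and red cell markers were within the range of the others. The 8 tooth mesenchyme markers and the 9 tooth epithelium markers were expressed in the teeth of every stage. The summed level of 15 skeletal muscle markers was 1354 CPM in 1 E13 tooth, the left tooth of embryo 7, against a median of 45.02 CPM at E13. In these whole tooth germs, fewer cells of a type and less RNA per cell cannot be told apart.

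A molar forms from an epithelial bud that grows into the jaw mesenchyme, a tissue derived from the neural crest. At the cap stage the condensed mesenchyme forms the dental papilla under the folding epithelium, and at the bell stage the cells that will make dentine and enamel begin to differentiate. Genes of the early jaw mesenchyme include homeobox and T-box transcription factors, and many genes of embryonic growth, such as imprinted genes and oncofetal RNA-binding proteins, are known to be turned down as organs mature.

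Each condition on its own was met by many more genes than the combination. The E14 median was at most 0.8 times the E13 median for 1335 of the 12370 genes (10.8%), and the E16 median was at most 0.8 times the E14 median for 1803 (14.6%). Both held for 290 genes (2.34%). Every E14 tooth was below every E13 tooth for 591 genes (4.78%), and the 6 E16 teeth were below every E14 tooth for 1047 (8.46%). The ratio and the order together held for 377 genes (3.05%) in the first step and for 810 genes (6.55%) in the second. Both orders of the teeth held for 74 genes (0.598%) in the downward direction and for 231 genes (1.87%) in the upward direction. The 45 genes are 0.364% of the 12370. Without the right tooth of embryo 3 at E14, 68 genes met the conditions, with 44 of the 45 among them. The genes closest to the threshold on the inside were Gpc6, Marcks, and Bcl7c, with E14 to E13 ratios of 0.789, 0.794, and 0.794. Closest on the outside were Pcdh17 with an E14 to E13 ratio of 0.802, Vash2 with 0.804, and Hdgfl3 with an E16 to E14 ratio of 0.819.

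The sizes of the falls differed widely. The E16 median was between 1.69 and 142 times lower than the E13 median, with a median over the 45 genes of 2.43. It was at least 2-fold lower for 35 genes and at least 4-fold lower for 12. Together the 45 genes made up 9375 CPM at E13 (median over teeth, range 8729 to 9942), 6473 CPM at E14 (5909 to 6674), and 3943 CPM at E16 (3041 to 4046). On the log2 scale, with 0.1 CPM added to each median, the fall was larger in the first step for 16 genes and in the second step for 29. Tbx15 had 78.6% of its log2 fall in the first step, Tmem26 69.5%, Skida1 63.7%, and Gas1 61.0%. Hbb-y was at the other end with 17.3%, followed by Igf2bp1 with 26.2%, Kif26b with 26.6%, and Gpc6 with 27.7%. The coefficient of variation between teeth had a median over the genes of 9.44% at E13, 10.9% at E14, and 18.7% at E16, and of 11.97% at E16 without the left tooth of embryo 3.

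**Figure D1:**
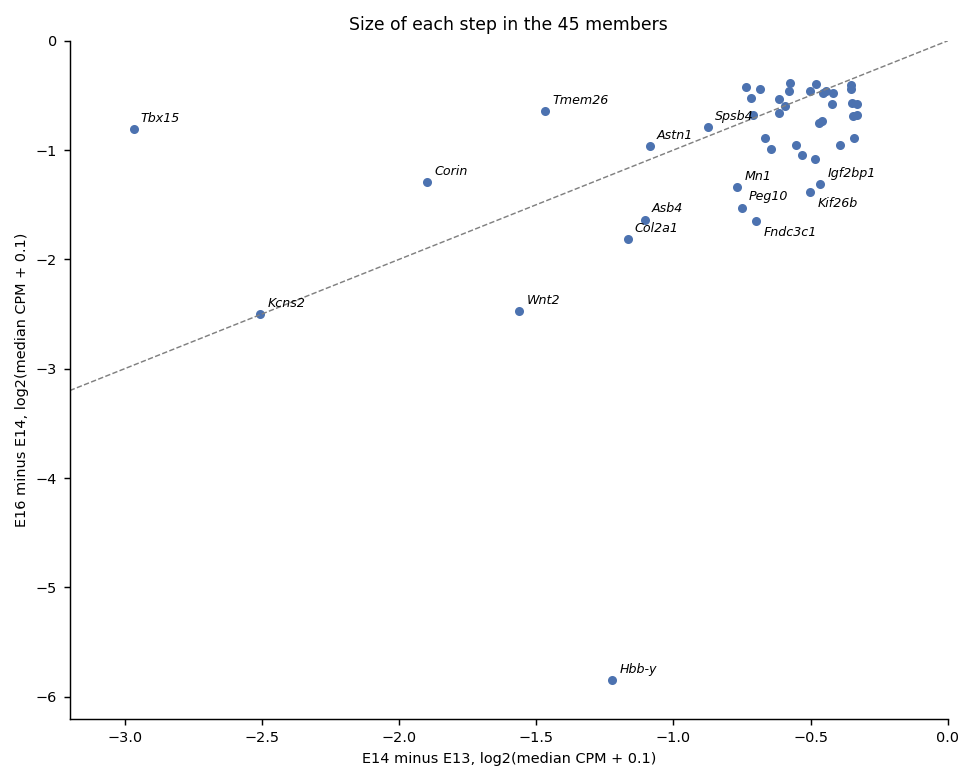
Difference between the stage medians for each of the 45 genes, with the E14 minus E13 step on the horizontal axis and the E16 minus E14 step on the vertical axis, both in log2(median CPM + 0.1). Each point is a gene, and points below the dashed line of equal steps fell more in the second step, as 29 did. Hbb-y lies far below the line, and Tbx15 and Tmem26 lie above it.

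Transcription factors and their coregulators were 5 of the genes, with falls between 2.23-fold and 13.9-fold from E13 to E16. Lhx8, a LIM homeobox factor of the oral and jaw mesenchyme (chr3:154306294-154330659, GRCm38, minus strand), had 184 CPM in the lowest, 205 CPM in the median, and 233 CPM in the highest tooth at E13. The values were 126, 129, and 156 CPM at E14, and 64.2, 69.5, and 92.0 CPM at E16. The stages did not overlap, and the highest E16 value belonged to the left tooth of embryo 3. Tbx3, a T-box factor of early mesenchyme and limb (chr5:119670669-119684724, plus strand), had 195, 211, and 257 CPM at E13, 140, 144, and 161 CPM at E14, and 50.02, 74.2, and 99.5 CPM at E16. The Tbx3 stages did not overlap either, and the lowest E16 value was that of the left tooth of embryo 3.

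Tbx15, a T-box factor of the skeleton and skin mesenchyme (chr3:99240381-99354259, plus strand), lost most of its level by the cap stage. It had 56.5, 84.5, and 94.6 CPM in the lowest, median, and highest tooth at E13, but 9.56, 10.7, and 30.0 CPM at E14. At E16 the values were 5.09, 6.08, and 8.41 CPM. A single E14 tooth, the right tooth of embryo 1, was at 30.0 CPM, and the other 6 E14 teeth were at 12.3 CPM or below. Mn1, a transcriptional coregulator that is needed for the palate and the membranous bones of the skull (chr5:111417362-111457033, plus strand), had 267, 296, and 313 CPM at E13, 137, 174, and 209 CPM at E14, and 36.9, 68.7, and 73.3 CPM at E16. Skida1, a nuclear protein with a SKI and DACH domain, went from a median of 61.4 CPM at E13 to 36.9 CPM at E14 and 27.5 CPM at E16.

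**Figure D2:**
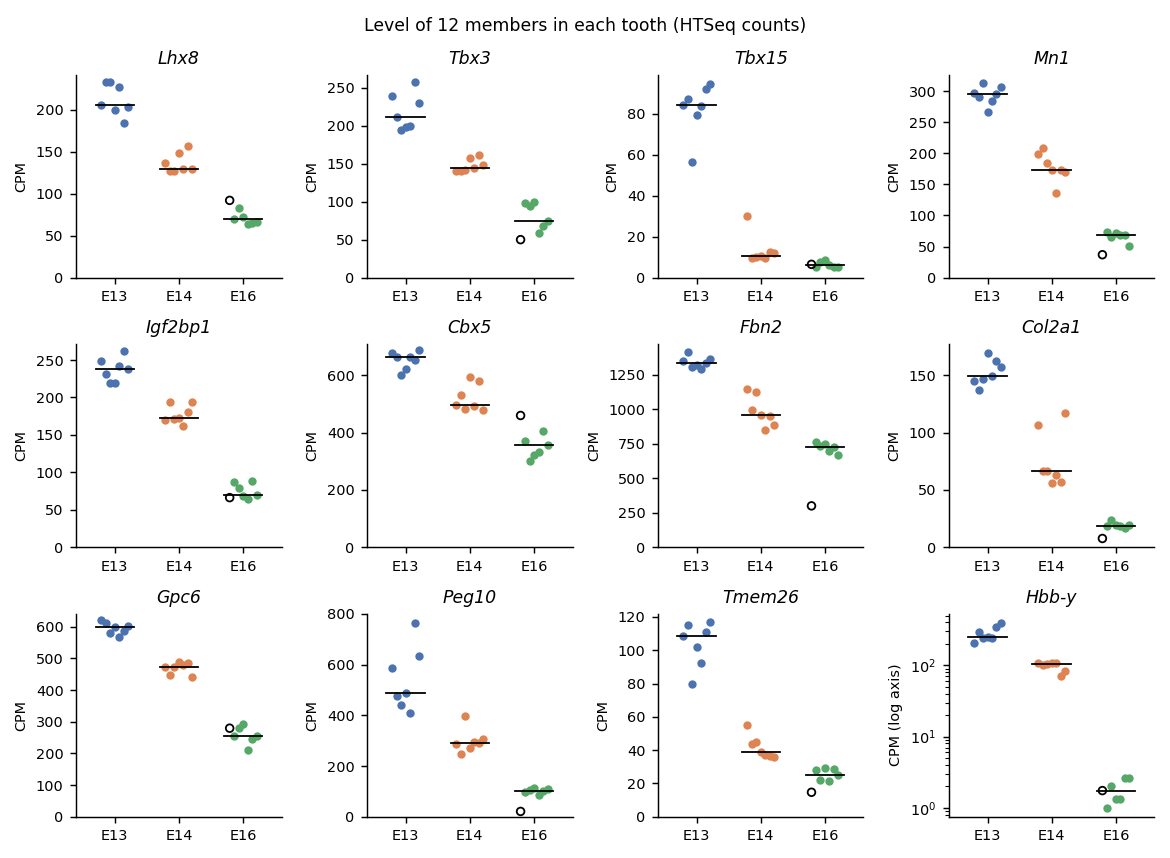
Level of 12 of the genes in every tooth at E13, E14, and E16 in CPM of the HTSeq counts, with a log axis for Hbb-y only. Filled points are teeth, black lines are the medians of 7 teeth, and the open circle is the left tooth of embryo 3 at E16, which was exempt from the order. The filled points of the stages do not overlap in any panel, and the open circle of Fbn2, Col2a1, and Peg10 lies below all the other E16 teeth.

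Lhx8 and Tbx3 also belong to a list of 40 oral and jaw mesenchyme transcription factors, of which 39 had enough counts to be tested with edgeR (quasi-likelihood test, adjusted p below 0.05). Of these, 13 were lower and 7 higher at E14 than at E13, and over all 19101 genes tested 8.47% were lower and 11.3% higher. From E14 to E16, 22 were lower and 8 higher, and over all genes 13.1% were lower and 15% higher. The median log2 difference of the list was -0.20 in the first step and -0.52 in the second, and that of all genes tested was -0.0083 and 0.0037. Lhx8 and Tbx3 are among the lower ones by their choice. Among the others, Osr1, an odd-skipped factor, had stage medians of 127, 72.4, and 28.6 CPM. Nr2f1, an orphan nuclear receptor, went from 85.2 to 41.3 and 4.06 CPM. In contrast, Dlx3, a homeobox factor, had medians of 26.7, 78.6, and 176 CPM, and Msx2 of 4.66, 15.03, and 71.3 CPM.

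Igf2bp1, an RNA-binding protein that stabilizes growth-related messages in the embryo (chr11:95957163-96005940, minus strand), is the member of the set from the heterochronic genes, whose levels mark developmental time in many tissues. Its level was 219, 238, and 262 CPM in the lowest, median, and highest tooth at E13, 162, 172, and 195 CPM at E14, and 64.8, 69.5, and 88.2 CPM at E16. The stages did not overlap, and the gap between them was wider from E14 to E16 than from E13 to E14. In a list of 20 heterochronic and oncofetal genes, 19 were tested, and with Igf2bp1 among them 4 were lower and 3 higher at E14 than at E13, against 8.47% and 11.3% of all genes. From E14 to E16, 7 were lower and 3 higher, against 13.1% and 15% of all genes. Lin28b, which blocks the maturation of let-7, had medians of 6.17, 3.25, and 1.36 CPM. Hmga2, an architectural chromatin protein, went up from 418 to 510 CPM before it went down to 206 CPM (edgeR, E16 and E14, log2 difference -1.34, SE 0.098, adjusted p = 1.8e-10). Igf2bp3 had medians of 161, 138, and 98.0 CPM, and Igf2bp2, the third gene of the family, of 241, 244, and 196 CPM.

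Igf2bp1 is known as a target of the let-7 microRNAs, which increase in many tissues during development and which were not measured in these libraries. The members of the let-7 family share bases 2 to 8, the seed, which pairs with the letters CTACCTC in a message. Of the 9 family members in RefSeq (GRCm38.p6), the mature sequences of let-7a and of let-7g are shown to mark the shared seed, which is in capitals.
mmu-let-7a-5p: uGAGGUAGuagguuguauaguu
mmu-let-7g-5p: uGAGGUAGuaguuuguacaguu

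The longest annotated 3′ untranslated region (UTR) of Igf2bp1 is 6337 bases long and holds 4 matches to the seed, of which 3 are followed by an A. That of Cbx5 is 8097 bases long and holds 2 matches, 1 of them followed by an A. These 6 sites are shown in the direction of the message, both genes being on the minus strand of GRCm38, with the match in capitals.
Igf2bp1 chr11:95961778-95961799: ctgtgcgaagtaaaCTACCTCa
Igf2bp1 chr11:95959357-95959378: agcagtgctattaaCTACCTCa
Igf2bp1 chr11:95958763-95958784: tataaatggatgaaCTACCTCa
Igf2bp1 chr11:95958140-95958161: cttttggttttaatCTACCTCt
Cbx5 chr15:103194889-103194910: ttttgaattttaatCTACCTCg
Cbx5 chr15:103192960-103192981: gtgataatactgacCTACCTCa

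Only 9 of the 12311 genes with an annotated UTR (0.0731%) have 4 or more matches, and 169 genes (1.37%) have 2 or more. Arhgap28, Wnk3, Kif21b, and Amot have 1 match each. Over the whole set, 6 of 45 genes (13.3%) had a match, against 1352 of 12311 genes (10.98%). A match followed by an A was found in 4 genes of the set (8.89%) and in 3.85% of all. Counted per length, there were 0.0936 matches per kb in the set and 0.0714 per kb in all the genes. Of the 10 matches in the set, 4 are those of Igf2bp1. The median UTR length was 1825 bases in the set and 1292 bases in all, and longer UTRs hold more matches. The same letters written backwards, CTCCATC, were found in 5 genes of the set (11.1%) and in 14.2% of all. The match to miR-125, CTCAGGG, was found in 13.3% of the set against 16.2%, and that to miR-29, TGGTGCT, in 26.7% against 16.51%. Counted per kb, miR-29 had 0.131 matches in the set and 0.113 in all the genes. All matches were counted on the message strand only. A match describes the sequence and does not show that a microRNA acts on it.

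Of the proteins of chromatin and the nucleus, 5 were in the set, with falls between 1.69-fold and 1.89-fold from E13 to E16. Cbx5, the heterochromatin protein HP1 alpha, had 601, 664, and 690 CPM in the lowest, median, and highest tooth at E13, 480, 496, and 595 CPM at E14, and 302, 356, and 460 CPM at E16. The highest E14 tooth was just under the lowest E13 tooth. Eid1, an inhibitor of histone acetyltransferases, had 166, 189, and 199 CPM at E13, 139, 148, and 153 CPM at E14, and 90.2, 109, and 116 CPM at E16. Bcl7c, a subunit of the BAF chromatin remodeling complex, had 89.1, 102, and 105 CPM at E13, 68.3, 80.7, and 86.2 CPM at E14, and 45.2, 54.1, and 58.8 CPM at E16. The stages of Eid1 and Bcl7c did not overlap. Atxn7l3b, a relative of a subunit of the SAGA deubiquitinase, had 261, 274, and 292 CPM at E13, 195, 215, and 238 CPM at E14, and 85.9, 162, and 194 CPM at E16, with the highest E16 tooth just under the lowest E14 tooth. Timeless, a protein of the replication fork, had medians of 89.5, 70.2, and 47.4 CPM.

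Cbx5 is on a list of 22 chromatin regulators of embryonic cells, all of which were tested. At E14, 2 were lower and 2 higher than at E13, against 8.47% and 11.3% of all genes. At E16, 9 were lower than at E14, against 13.1% of all genes, and Cbx5 is among the lower ones of both steps by its choice. The lists for mitosis, DNA replication, and ribosome biogenesis held no gene of the set. Of their 30, 31, and 32 genes tested, 7, 1, and 1 were higher at E14 than at E13, against 11.3% of all genes. In the same order, 29, 23, and 23 were lower at E16 than at E14, against 13.1% of all genes.

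A ligand, receptors, a proteoglycan, and enzymes that process them made up 8 of the genes. Wnt2, a ligand of the canonical Wnt pathway (chr6:17988940-18030585, minus strand), was weakly expressed, with 6.92, 7.88, and 11.2 CPM in the lowest, median, and highest tooth at E13. At E14 it had 1.96, 2.60, and 4.70 CPM. At E16 the counts per tooth were between 0 and 38, with a median of 0.387 CPM. The pooled reads over the pooled library totals were 16.2-fold lower at E16 than at E13 (95% exact interval 13.1 to 20.3, for counting error only). Gas1, a coreceptor for hedgehog ligands (chr13:60174405-60177365, minus strand), had 181, 188, and 209 CPM at E13, 108, 117, and 145 CPM at E14, and 54.4, 86.6, and 107 CPM at E16. The E16 tooth with the highest Gas1 level was only just below the lowest E14 tooth.

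Gas1 is on a list of 47 components of the Wnt, Fgf, Bmp, and hedgehog pathways, which was drawn up without Wnt2. Of the 47 genes, 6 were lower and 15 higher at E14 than at E13, against 8.47% and 11.3% of all genes. At E16, 15 were lower and 15 higher than at E14, against 13.1% and 15% of all genes, and Gas1 is among the lower ones of both steps by its choice. Gpc6, a glypican that carries heparan sulfate at the cell surface (chr14:116925315-117976544, plus strand), was among the most highly expressed genes of the set. It had 569, 598, and 621 CPM at E13, 440, 472, and 487 CPM at E14, and 210, 254, and 291 CPM at E16. Hs6st2, an X-linked enzyme that sulfates heparan sulfate, had stage medians of 118, 84.4, and 39.7 CPM. Csgalnact1, which starts chondroitin sulfate chains, had medians of 32.1, 25.2, and 15.7 CPM.

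Ephb3, a receptor tyrosine kinase for ephrins, had medians of 199, 145, and 87.5 CPM. Corin, a membrane serine protease, fell mainly by the cap stage, with 17.9, 23.4, and 30.8 CPM at E13, 4.17, 6.20, and 15.2 CPM at E14, and 2.05, 2.48, and 3.28 CPM at E16. The right tooth of embryo 3 was far above the other E14 teeth of Corin, which reached 8.33 CPM. Pcsk5, a proprotein convertase that cleaves growth factor precursors, had medians of 82.7, 53.9, and 34.0 CPM.

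The set held 2 matrix genes. Fbn2, fibrillin-2 of the elastic microfibrils of embryonic tissue, had the most CPM of the set before division by length, with 1289, 1334, and 1416 CPM in the lowest, median, and highest tooth at E13, 846, 957, and 1148 CPM at E14, and 300, 727, and 760 CPM at E16. The value of 300 CPM was that of the left tooth of embryo 3, and the next lowest E16 tooth was at 667 CPM. Col2a1, the collagen of cartilage (chr15:97975602-98004695, minus strand), had 137, 149, and 169 CPM at E13, 56.1, 66.3, and 117 CPM at E14, and 7.63, 18.7, and 23.4 CPM at E16. A pair of E14 teeth, at 106 and 117 CPM, stood above the others.

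Col2a1 fell in both steps, unlike the sum of the other cartilage markers. That sum had a lower median at E14 than at E13 with overlapping ranges, and a higher median at E16. The summed level of the 10 other markers on the list had a median of 61.2 CPM at E13 (53.4 to 90.2), 47.8 CPM at E14 (40.0 to 87.5), and 93.3 CPM at E16 (86.9 to 106). Acan, the aggrecan of cartilage, had medians of 0.313, 0.340, and 2.25 CPM, and Matn1 and Snorc had medians of 0 at every stage. Of the 8 markers of the list that were tested, 4 were lower at E14 than at E13 with Col2a1 among them by its choice, against 8.47% of all genes. At E16, 4 were higher than at E14, against 15% of all genes, and Col2a1 was the 1 that was lower, again by its choice. Cnmd, the cartilage protein chondromodulin, had medians of 1.84, 0.317, and 0.168 CPM, and Col9a1, a chain of a cartilage collagen, of 1.58, 0.396, and 0.406 CPM. In contrast, Col9a3 had medians of 5.94, 5.90, and 24.2 CPM, and Hapln1 of 16.9, 15.85, and 33.2 CPM. The left tooth of embryo 8 had the most Col2a1 at E14 and also the highest sum of the other markers, at 87.5 CPM. The part of cartilage cells in the level of Col2a1 was not tested.

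Imprinted genes were 3 of the set. Peg10, a paternally expressed gene derived from a retrotransposon (chr6:4747306-4760517, plus strand), had 408, 489, and 764 CPM in the lowest, median, and highest tooth at E13, 248, 290, and 396 CPM at E14, and 20.99, 101, and 115 CPM at E16. The left tooth of embryo 3 was at 20.99 CPM and the other E16 teeth were at 85.6 CPM or above. Asb4, which is in the same imprinted region 623 kb away (chr6:5383386-5433022, plus strand), had 34.2, 49.5, and 62.0 CPM at E13, 19.9, 23.0, and 27.4 CPM at E14, and 5.61, 7.32, and 11.1 CPM at E16. Peg12, paternally expressed on chromosome 7, had medians of 20.98, 15.1, and 8.95 CPM. The falls from E13 to E16 were 4.85-fold for Peg10, 6.76-fold for Asb4, and 2.35-fold for Peg12, and in each the second step was the larger on the log2 scale.

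Proteins of the cytoskeleton, motors, and cell junctions, with the cell size regulator Prr16 counted among them, were 9 of the genes, with falls between 1.91-fold and 3.70-fold. Marcks, which binds actin and the plasma membrane, had 690, 755, and 812 CPM at E13, 527, 600, and 615 CPM at E14, and 217, 374, and 478 CPM at E16. Kif26b, a kinesin-like protein of condensing mesenchyme (chr1:178529125-178939200, plus strand), had 397, 459, and 500 CPM at E13, 317, 324, and 348 CPM at E14, and 72.9, 124, and 142 CPM at E16. The Kif26b teeth of E14 lay within a narrow band, and its fall was mostly in the second step.

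Capn6, an X-linked calpain that stabilizes microtubules, had 353, 428, and 517 CPM in the lowest, median, and highest tooth at E13, 238, 295, and 326 CPM at E14, and 122, 143, and 171 CPM at E16, without overlap. Amot, an X-linked junction protein of the Hippo pathway, had stage medians of 259, 174, and 133 CPM. The kinesins Kif21b and Kif5c had medians of 74.1, 54.1, and 38.8 CPM and of 44.8, 29.9, and 21.7 CPM. Arhgap28 had medians of 149, 98.6, and 65.3 CPM. Pgm5, a protein of adherens junctions, had medians of 74.8, 45.7, and 28.4 CPM, and Prr16 of 54.6, 41.6, and 21.4 CPM.

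A further 8 genes encode proteins known from neurons, a channel subunit, a kinase, and other enzymes. Nbea, a protein of vesicle traffic, had 307, 339, and 354 CPM in the lowest, median, and highest tooth at E13, 220, 239, and 250 CPM at E14, and 152, 174, and 260 CPM at E16. The left tooth of embryo 3 at E16, at 260 CPM, was above every E14 tooth of Nbea. Astn1, which acts in the migration of neurons along glia, had 42.6, 47.9, and 56.03 CPM at E13, 20.2, 22.5, and 28.5 CPM at E14, and 6.79, 11.5, and 14.1 CPM at E16, and its stages did not overlap. The summed level of 12 neuron markers had medians of 55.1, 41.8, and 40.1 CPM at E13, E14, and E16. Of the 7 markers tested, 3 were lower and 1 higher in the first step, against 8.47% and 11.3% of all genes. In the second step 3 were lower and 2 higher, against 13.1% and 15% of all genes. The part of neurons in these levels was not tested.

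Kcns2, a potassium channel subunit, had the lowest level of the set, with 4.32, 5.64, and 6.93 CPM at E13 and 0.544, 0.911, and 2.46 CPM at E14. At E16 it had between 1 and 10 reads per tooth, 10 of them in the left tooth of embryo 3. Its pooled reads over the pooled library totals were 44.4-fold lower at E16 than at E13 (95% exact interval 28.8 to 72.04, for counting error only). Without that tooth they were 75.8-fold lower (42.2 to 152). Wnk3, an X-linked kinase that regulates chloride transport, had 29.5, 37.6, and 46.4 CPM at E13, 26.1, 27.6, and 29.5 CPM at E14, and 14.7, 20.1, and 34.4 CPM at E16, the last being the left tooth of embryo 3. Rimklb, an enzyme of N-acetylaspartylglutamate synthesis, had medians of 87.1, 65.0, and 43.5 CPM. The ubiquitin ligase Rnf182 had medians of 41.0, 26.2, and 13.2 CPM, Spsb4, a SOCS box protein, of 8.39, 4.53, and 2.58 CPM, and Pde7b, a phosphodiesterase of cyclic AMP, of 128, 77.7, and 54.0 CPM.

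Of the remaining membrane and surface proteins, Tmem26 had 79.8, 108, and 117 CPM in the lowest, median, and highest tooth at E13, 35.9, 39.1, and 55.2 CPM at E14, and 14.7, 25.0, and 29.4 CPM at E16. Fndc3c1, an X-linked protein with fibronectin domains, had 49.1, 58.01, and 78.3 CPM at E13, 29.1, 35.7, and 40.3 CPM at E14, and 10.1, 11.3, and 14.8 CPM at E16, and neither gene had stages that overlapped. Lhfpl2, a tetraspan protein, had stage medians of 117, 76.5, and 52.7 CPM. Tmem26 and Fndc3c1 differed in the timing of the fall, with 69.5% and 29.7% of it in the first step.

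Hbb-y, the embryonic beta-like globin of primitive red cells (chr7:103851749-103853216, minus strand), had the largest fall of the set. Its level was 209, 247, and 395 CPM in the lowest, median, and highest tooth at E13, 70.5, 106, and 107 CPM at E14, and 1.01, 1.74, and 2.65 CPM at E16. Hba-x, the embryonic alpha-like globin, had medians of 5.30, 3.68, and 0.327 CPM, and Hbb-bh1 had medians of 0.126, 0, and 0 CPM. The 7 definitive red cell markers summed to medians of 43.8, 68.4, and 62.1 CPM. Of these 7, 1 was higher at E14 than at E13, against 11.3% of all genes. At E16, 1 was lower than at E14, against 13.1% of all genes. Globin genes resemble each other, and how reads shared between them were counted is not given in the sources used here.

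Between genes, levels can be compared only per length. Divided by the length of the exons, the E13 median was highest for Hbb-y with 391 CPM per kb, Marcks with 187 CPM per kb, and Eid1 with 112 CPM per kb. The level per kb of Fbn2, at 101, was close to that of Gpc6, at 93.1. Kcns2 was lowest with 1.01 CPM per kb.

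The tooth epithelium markers rose while the set fell, and the tooth mesenchyme markers were lower mainly in the second step. The summed level of the 9 tooth epithelium markers had a median of 896 CPM at E13 (750 to 1094), 1839 CPM at E14 (1752 to 2050), and 3489 CPM at E16 (2382 to 3974). All 9 were higher in both steps (edgeR, adjusted p below 0.05), against 11.3% and 15% of all genes. Of the 8 tooth mesenchyme markers, 2 were lower and 1 higher at E14 than at E13, against 8.47% and 11.3% of all genes. At E16, 6 were lower than at E14, against 13.1% of all genes. Lhx8 is among these markers and was chosen for its falls. Without Lhx8, which is in the set, the other 7 summed to 3124 CPM at E13 (2928 to 3293), 2954 CPM at E14 (2648 to 3053), and 1660 CPM at E16 (1296 to 1958). The sum at E14 was thus 0.946 of that at E13, and the sum at E16 was 0.562 of that at E14. The median ratio of the set was 0.669 in the first step and 0.602 in the second.

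**Figure D3:**
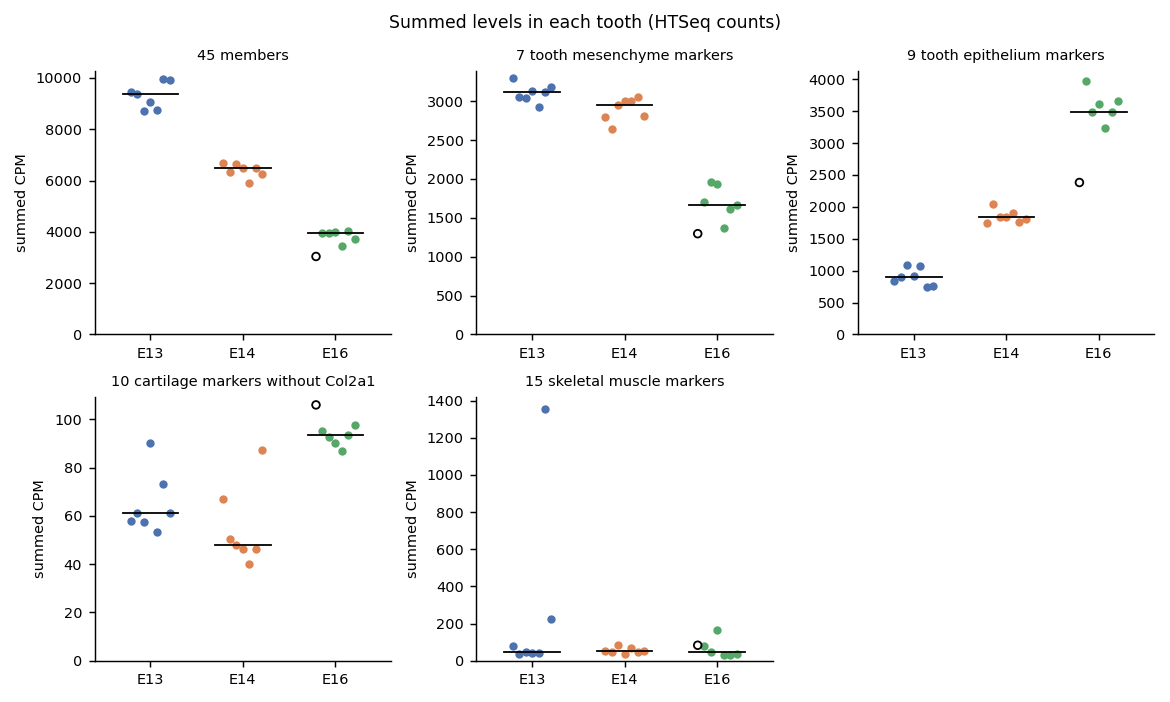
Summed CPM per tooth at E13, E14, and E16 for the 45 genes, the 7 tooth mesenchyme markers outside the set, the 9 tooth epithelium markers, the 10 cartilage markers without Col2a1, and the 15 skeletal muscle markers. Filled points are teeth, black lines are medians of 7 teeth, and the open circle is the left tooth of embryo 3 at E16. The 45 genes go down in both steps, the mesenchyme markers mainly in the second, and the epithelium markers go up in both.

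Expressed relative to the sum of the 7 mesenchyme markers, the genes behaved differently in the steps. Prrx1 had the highest level of the 7, with medians of 1481, 1229, and 500 CPM at E13, E14, and E16, so it weighs most in the sum. In contrast, Dlx2 had medians of 82.7, 195, and 185 CPM, and Barx1 of 189, 224, and 166 CPM. How far the relative levels depend on Prrx1 was not tested. At E14 all 45 genes had a lower relative median than at E13, with a median ratio of 0.734. Every E14 tooth was below every E13 tooth for 29 of them, and for 1.56% of the 12370 genes on this scale. From E14 to E16, 21 had a lower and 24 a higher relative median, with a median ratio of 1.04. The 6 E16 teeth were below every E14 tooth for 7 genes of the set and for 0.784% of all. On this scale 5 genes met all the conditions, and all 5 are of the set, namely Col2a1, Fndc3c1, Hbb-y, Kcns2, and Peg10. The choice used the same values before this division, so the shares beside all genes are a description and no test.

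The relative level of Peg10 was 15.7% of the marker sum at E13, 9.85% at E14, and 5.95% at E16, and that of Mn1 was 9.52%, 6.01%, and 3.73%. The levels of Fbn2, 42.9%, 31.9%, and 40.2% of the sum, were lowest at E14, as were those of Marcks, at 24.0%, 20.5%, and 22.5%. Cbx5 had 20.9%, 17.7%, and 21.8% of the sum, while its median CPM at E16 was 0.536 of that at E13. These relative levels also reflect the lower marker sum at E16. In all, 5 genes had a higher relative median at E16 than at E13, namely Atxn7l3b, Bcl7c, Cbx5, Eid1, and Timeless. How much of each fall the share of mesenchyme accounts for was not tested.

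The E15 teeth were not used in choosing the genes, and they show where the levels stood between the cap and the bell stage. The E13 and E16 teeth on either side are those of the choice. The genes were chosen as high in the former and low in the latter. The excess over all genes in both intervals is therefore in part built into the choice. Whether the E15 libraries were prepared together with the others is not given in the sources used here, and their labels name the library kit differently, so that stage and preparation cannot be told apart. Of the 45 genes, 39 are listed in the salmon table, the others being Astn1, Fndc3c1, Nbea, Peg10, Peg12, and Rimklb, which are listed there for no stage. All 39 were lower at E15 than at E13 (edgeR quasi-likelihood test, Benjamini-Hochberg adjusted p below 0.05), and over the 13447 genes tested 8.49% were. The median log2 difference of the 39 was -0.89, and that of all genes 0.042. From E15 to E16, 16 of the 39 were lower, against 2.69% of all genes, with a median log2 difference of -0.36 against -0.0094.

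Every E15 tooth was below every E13 tooth for 36 of the 39 genes and for 5.63% of the 11161 listed genes that reached the E13 minimum. The exceptions were Ephb3, Kif21b, and Timeless. The 6 E16 teeth were below every E15 tooth for 8 genes and for 2.01% of all, the 8 being Capn6, Col2a1, Csgalnact1, Eid1, Gpc6, Hbb-y, Kif26b, and Pcsk5. The E15 median was between the E13 and the E16 median for 34 genes. The share of the log2 fall from E13 to E16 that was reached at E15 was between 41.9% and 110%, with a median of 78.8%.

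Genes with little left to fall after E15 included Tbx15, with 93.6 CPM at E13, 4.89 CPM at E15, and 6.35 CPM at E16 in the medians of the salmon table. The log2 difference of Tbx15 was -4.05 from E13 to E15 (SE 0.22, edgeR adjusted p = 1.2e-11) and 0.38 from E15 to E16 (SE 0.20, adjusted p = 0.35). Amot, with 306, 151, and 156 CPM, had a difference of -1.03 in the first interval (SE 0.12, adjusted p = 4.2e-07) and -0.0040 in the second (SE 0.11, adjusted p = 0.99). Cbx5, Lhfpl2, and Marcks were the other genes with an E15 median below the E16 median.

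Genes that continued to fall included Hbb-y, with 313, 9.61, and 2.01 CPM at E13, E15, and E16. Its log2 difference was -5.17 to E15 (SE 0.23, edgeR adjusted p = 5.1e-13) and -2.10 from E15 to E16 (SE 0.22, adjusted p = 1.3e-06). Gpc6, with 515, 303, and 206 CPM, had a difference of -0.67 (SE 0.071, adjusted p = 1.5e-07) and then of -0.53 (SE 0.070, adjusted p = 3.4e-05). For Csgalnact1 the later difference of -0.60 (SE 0.10, adjusted p = 0.00044) exceeded the earlier one of -0.37 (SE 0.10, adjusted p = 0.0081), but the difference between them was not tested. Eid1 had -0.32 and then -0.50, and Rnf182 -0.76 and then -0.85.

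Of the transcription factors, Lhx8 had 213, 108, and 73.0 CPM in the medians of E13, E15, and E16, with a log2 difference of -0.47 from E15 to E16 (SE 0.13, edgeR adjusted p = 0.025). Mn1 had 350, 119, and 76.2 CPM and a difference of -0.80 (SE 0.17, adjusted p = 0.0046). Tbx3 had 254, 89.6, and 82.9 CPM, and its later difference of -0.11 (SE 0.14, adjusted p = 0.79) was within the spread between teeth. Igf2bp1 had 282, 108, and 87.9 CPM, with a difference of -1.28 to E15 (SE 0.11, adjusted p = 6.0e-09) and of -0.39 from E15 to E16 (SE 0.11, adjusted p = 0.029). The later calls of Lhx8 and Igf2bp1 were lost when the teeth of an embryo were summed, with log2 differences of -0.46 and -0.39.

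**Figure D4:**
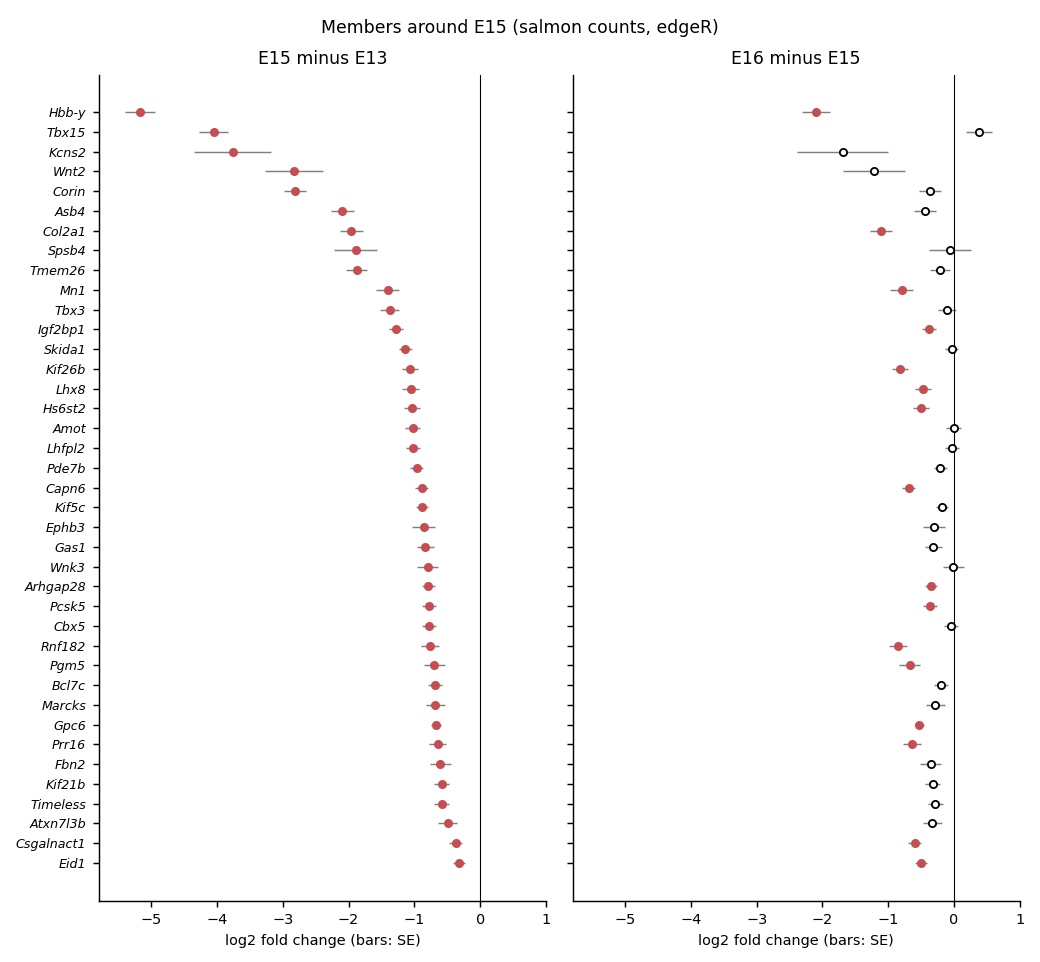
Log2 fold changes of the 39 genes listed in the salmon table, from E13 to E15 on the left and from E15 to E16 on the right, as fitted by edgeR with bars for 1 SE. Filled points have an adjusted p below 0.05 and open points do not, and genes are ordered by the change to E15. All 39 points on the left are filled and negative, and 16 are filled on the right.

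The mesenchyme markers moved in the same interval. In the salmon table the 7 markers outside the set summed to 3716 CPM at E13 (3601 to 3815), 2619 CPM at E15 (2499 to 2824), and 1910 CPM at E16 (1461 to 2173), and the 9 epithelium markers to 1109, 2987, and 4196 CPM in the medians. The part of these shifts in the differences of the 39 genes was not tested.

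The left tooth of embryo 3 was exempt from the order at E16, and its values were thus not fully fixed by the choice, although it counted in the E16 median. It was below every E14 tooth for 40 of the 45 genes. Of the 810 genes that met the conditions of the second step, 626 (77.3%) were below every E14 tooth in this tooth. In Csgalnact1, Kcns2, and Rimklb it was between the lowest and the highest E14 tooth, and in Nbea and Wnk3 it was above every E14 tooth. Its Wnk3 level was 34.4 CPM, against 14.7 to 22.7 CPM in the other E16 teeth. Peg10 at 0.203, Wnt2 at 0.317, Col2a1 at 0.403, and Fbn2 at 0.411 of the median of the other 6 teeth were the lowest. The median over the set was 0.864, and over the 810 genes it was 0.9503.

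**Figure D5:**
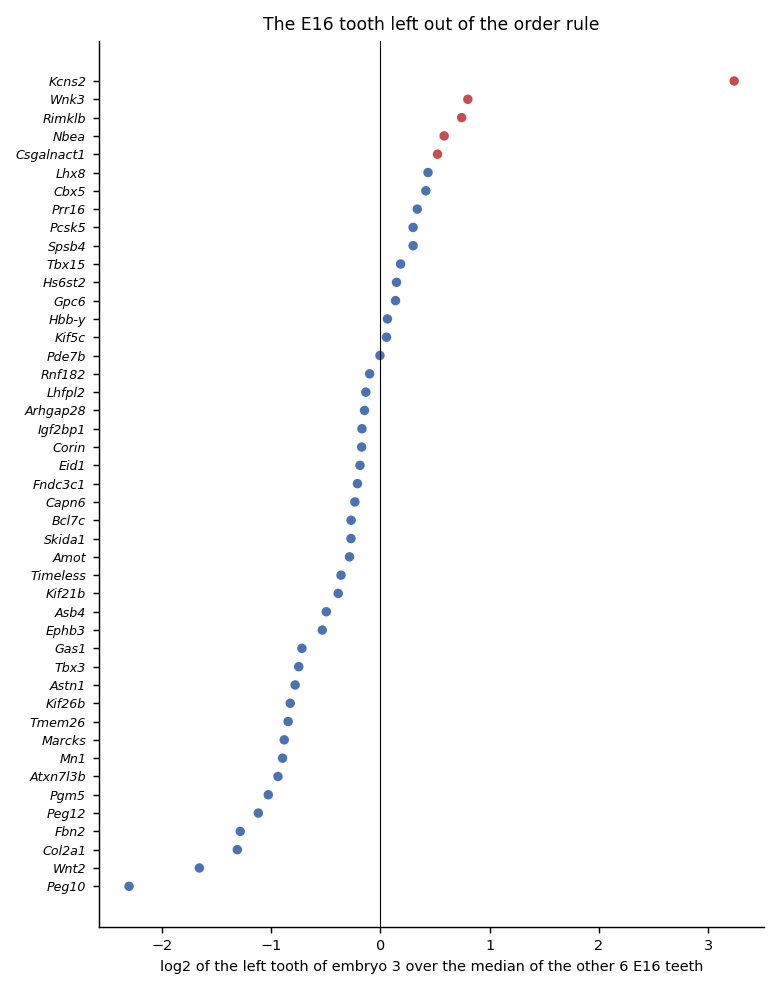
Level of each of the 45 genes in the left tooth of embryo 3 at E16, as the log2 ratio to the median of the other 6 E16 teeth. Red points are the 5 genes for which this tooth was not below every E14 tooth, and blue points the other 40. Peg10 is lowest and Kcns2, with 10 reads in this tooth, is highest.

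The genes were compared with all 12370 in their chromosome and their length, which the choice did not use directly. On the X chromosome were 5 of 45 genes (11.1%), namely Amot, Capn6, Fndc3c1, Hs6st2, and Wnk3, against 3.56% of all, and Capn6 and Amot are 1619 kb apart. The median gene span was 51.5 kb in the set and 26.6 kb in all, and the median exon length was 6315 and 4780 bases. Longer genes collect more reads at the same number of messages, and the choice used CPM not divided by length. The median E13 level was 117 CPM in the set and 32.5 CPM in all, so the lengths are not independent of the choice.

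In 14 of the 45 genes some exon bases are shared with another annotated gene, in most cases on the opposite strand. Whether the counting used the strand is not given in the sources used here. The share was largest for Eid1, 31.2% of whose exon bases overlap Shc4, a gene with 2.86 CPM at E13. It was 19.9% for Gas1, whose partner had 1.49 CPM.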

How the data were processed

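For the mouse teeth, the authors filtered the reads (FastQC, AfterQC, Trimmomatic), aligned them with STAR to GRCm38 with Ensembl release 90, and deposited whole-number counts per gene made with HTSeq for 52636 genes. A second deposited table holds estimated counts per gene in whole numbers for 14185 genes, made per the processing notes of the E15 samples with Trimmomatic 0.39 and Salmon 0.99.0. Its choice of genes, and the strand setting of the counting, are not given in the sources used here. No column of values was left unused (0).

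CPM was computed from the sum of each column. Biotypes, coordinates, exon lengths, and UTRs were taken from GENCODE M21 (GRCm38), in which 147 counted genes are absent. Genes and lists were chosen with earlier results of these data known. All genes were fitted with edgeR 4.0.16 in R 4.3.3 (glmQLFit, glmQLFTest, filterByExpr, TMM, Benjamini-Hochberg), with stage as the factor, for the HTSeq counts of E13, E14, and E16 and for the salmon counts of E13, E15, and E16. The p values measure the spread between teeth, and the left and right teeth of an embryo entered as separate replicates. The scripts were tested on simulated data. Alternatives were other scalings, minima, thresholds, DESeq2 1.42.0, RLE factors, no filter, side, embryo number, teeth summed by embryo, and each tooth left out. Levels, counts, and intervals were computed in Python 3.11.15 (pandas 2.3.3, numpy 2.4.6, scipy 1.17.1). Counting intervals were exact at 95%. Named in full were the 12 genes with the largest and the 6 with the smallest fall, the 10 with the highest E13 level, those on a list, and those just inside the threshold, and other genes by their medians. The genes named besides from the lists, the roles, and the overlaps were picked after their values were seen.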

Additional observations from a re-analysis of the deposited data

Results flagged for a closer look

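In 16 of 174 groups of teeth a single tooth lay far from the other teeth of its stage by Dixon's test. For independent groups that were not chosen on their values, chance would give about 1 in 20, or 8.7. The groups here share the same teeth. The order conditions also limited the E13, E14, and E16 teeth, but not the left tooth of embryo 3 at E16. This left tooth of embryo 3 was the outlying tooth in 8 of the 16. It was high for Rimklb with 72.1 CPM (others 29.1 to 44.4), Wnk3 with 34.4 CPM (14.7 to 22.7), and Kcns2 with 0.561 CPM (0.0369 to 0.135). It was low for Col2a1 with 7.63 CPM (17.0 to 23.4), Fbn2 with 299.7 CPM (667 to 760), Kif26b with 72.9 CPM (115 to 142), Pgm5 with 14.4 CPM (25.6 to 33.8), and Peg10 with 20.99 CPM (85.6 to 115).

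The right tooth of embryo 3 at E14 was high for Corin with 15.2 CPM (others 4.17 to 8.33) and for Peg10 with 396 CPM (248 to 305). For Tbx15, the left tooth of embryo 2 was low at E13 with 56.5 CPM (79.4 to 94.6), and the right tooth of embryo 1 was high at E14 with 30.0 CPM (9.56 to 12.3). At E13, Bcl7c was low in the left tooth of embryo 3 with 89.1 CPM (98.9 to 105), and Spsb4 was high in the left tooth of embryo 10 with 14.3 CPM (7.96 to 9.03). In the salmon counts of E15, Kif5c was low in the right tooth of embryo 6 with 21.7 CPM (26.7 to 28.7), and Kif21b was high in the right tooth of embryo 4 with 78.1 CPM (40.6 to 54.5).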

How the results depend on the processing

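The number of genes that met the conditions was 45 and stayed between 40 and 63 with TMM or DESeq2 size factors, a minimum of 10 CPM or none, the order held for all 7 E16 teeth, and teeth summed by embryo. The genes were not all the same. Of the 45, 41 were among the 48 with TMM, and 38 were among the 47 with DESeq2 size factors. The number was 68 with CPM over protein-coding genes alone (40 of the 45 among them), 22 with 0.7 at each step, 74 with the order of the teeth alone, and 5 with CPM divided by the summed tooth mesenchyme markers, an alternative chosen after the data were seen. With each tooth left out in turn it was between 45 and 68, the highest being without the right tooth of embryo 3 at E14. The genes with a let-7 match were 13.3% with the longest UTR (10.98% of all genes), 4.44% with the shortest (6.22%), and 8.89% with the match followed by an A (3.85%). The 39 genes lower at E15 than at E13 stayed 39 under every alternative but the replicate block, including each tooth left out in turn (39 to 39). Those lower at E16 than at E15 were 16, between 12 and 17 over all the alternatives and over the teeth left out. The heterochronic genes lower at E14 were 4, with 3 to 5 over the teeth left out, and 7 to 8 at E16.

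The embryo numbers of different stages belong to different animals. Same-numbered teeth of different stages deviated from their stage means with correlations between -0.24 and 0.20 over 12 pairs in the salmon table and between -0.090 and 0.20 over 15 pairs of the HTSeq counts, so that the numbers do not pair the teeth. With the number as a replicate block, 32 of 39 genes were lower at E15 than at E13, 13 were lower at E16 than at E15, and 2 heterochronic genes were lower at E14. Depth limits the values of Kcns2 and Wnt2, which had few reads at E16.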
